A study of Mus musculus with 12 samples.

Results

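The S100 genes encode small proteins, most of which bind calcium, and 10 of these genes were followed here through 12 RNA-seq libraries of HC11 cells, a clonal mouse mammary epithelial line. The 10 genes, S100g, S100a1, S100a4, S100a6, S100a8, S100a9, S100a10, S100a11, S100a14 and S100a16, were taken by name from a table of 57180 genes. Of these 10, 9 passed the filter for low values (at least 1 TPM in at least 3 libraries), which left 14426 genes in all, and S100a9 did not pass. TPM is an abundance of transcripts scaled for gene length and for the total of the library.

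S100 proteins carry paired EF-hand loops, which bind calcium in most members but not in all. Most act as dimers that change shape with calcium and then grip a partner protein. Within cells they bind annexins, non-muscle myosin and other targets at the membrane and cytoskeleton, and several are also released and act on receptors such as the one encoded by Ager. In epithelia and epithelial tumours the family is known for roles in migration, invasion, calcium buffering and inflammation. Snail1, encoded by Snai1, is a zinc finger repressor that binds the E-box CAGGTG and is known for driving the epithelial-mesenchymal transition.

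The series asks what Snail1 does in collective migration. HC11 cells with a Snail1 knockdown, and control HC11 cells titled scr and given the genotype WT, were sorted by flow cytometry and aggregated overnight in medium with serum, EGF and insulin, then put through an in vitro migration assay. RNA was taken at 36 h and at 0 h, which gave 4 groups of 3 libraries: knockdown at 36 h (libraries 1, 2 and 3), knockdown at 0 h (1, 2 and 3), control at 36 h (1, 3 and 4) and control at 0 h (1, 2 and 3). All groups are the same line. Nothing in the labels makes the replicates separate cultures, and p-values therefore measure the spread between these libraries, which may be technical. Control 36 h library 4 has "mix" in its title, unexplained, and if it is a pool, control at 36 h holds only 2 independent samples. The authors' own mean column for control at 36 h is the mean of libraries 1 and 3, with library 4 in a column apart. The knockdown sequence and the number of knockdown clones are not given in the sources used here.

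The promoters are shown because Snail1 acts on promoter E-boxes. The RefSeq table (build GRCm38.p6) held a window of 250 bases before to 50 after the gene start for 8 of the 10 genes, 9 windows in all, and was searched on both strands for the Snail-type E-box CAGGTG, whose reverse complement is CACCTG, and for the AP-1 motif TGANTCA. Below are 4 of them, 5′ to 3′ on the gene's strand with motif matches in capitals: S100g, the member with the largest knockdown difference at 0 h, S100a11, the only member with 2 matches in a window, and S100a4 and S100a8, the members with the largest changes over time in control aggregates.
S100g: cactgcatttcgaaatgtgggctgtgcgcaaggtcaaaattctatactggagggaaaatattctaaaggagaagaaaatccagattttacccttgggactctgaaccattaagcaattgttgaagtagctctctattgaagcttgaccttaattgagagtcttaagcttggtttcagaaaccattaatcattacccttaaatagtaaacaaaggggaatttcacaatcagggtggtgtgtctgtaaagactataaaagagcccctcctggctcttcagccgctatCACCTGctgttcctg
S100a11: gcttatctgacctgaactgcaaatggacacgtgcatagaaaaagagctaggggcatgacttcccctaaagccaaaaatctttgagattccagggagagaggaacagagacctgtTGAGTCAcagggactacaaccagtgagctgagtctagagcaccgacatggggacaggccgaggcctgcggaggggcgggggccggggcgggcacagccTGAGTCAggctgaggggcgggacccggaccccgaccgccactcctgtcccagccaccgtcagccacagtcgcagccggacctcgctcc
S100a4: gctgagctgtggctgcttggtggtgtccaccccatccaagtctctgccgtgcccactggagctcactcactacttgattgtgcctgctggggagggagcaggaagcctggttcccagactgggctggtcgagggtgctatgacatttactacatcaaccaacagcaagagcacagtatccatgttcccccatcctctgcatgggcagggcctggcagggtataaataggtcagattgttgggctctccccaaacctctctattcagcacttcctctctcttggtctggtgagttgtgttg
S100a8: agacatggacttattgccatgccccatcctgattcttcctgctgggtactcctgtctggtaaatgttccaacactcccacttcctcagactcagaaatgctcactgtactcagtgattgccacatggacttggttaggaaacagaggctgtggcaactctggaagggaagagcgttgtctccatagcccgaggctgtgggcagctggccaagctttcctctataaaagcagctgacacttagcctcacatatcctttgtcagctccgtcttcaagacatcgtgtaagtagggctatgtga
The S100g window lies at chrX:162964550-162964849 on the minus strand, and its single CACCTG begins 36 bases into the transcript, counting the start as base 1. The S100a11 window, at chr3:93520246-93520545 on the plus strand, holds TGAGTCA beginning at positions -136 and -38 from the start. The S100a4 window (chr3:90603520-90603819, plus strand) and the S100a8 window (chr3:90668821-90669120, plus strand) held neither motif. Among the other members, the E-box was found in the S100a9 window, beginning at -53, and in the first S100a16 window, beginning at -203, and TGAATCA was found in the second S100a16 window, beginning at -192. The windows of S100a1 and S100a6 held neither, and S100a10 and S100a14 had no window and were not searched. The E-box stands in 20.2% of all 32851 mouse promoter windows of this length and the AP-1 motif in 7.81%, and a match is a run of letters, not evidence of binding.

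The libraries were first checked against their labels. Snai1 had 0.58, 0.44 and 0.20 TPM in knockdown libraries at 36 h and 2.77, 2.69 and 3.92 TPM in control libraries at 36 h, and at 0 h it had 0.58, 0.79 and 0.48 TPM in knockdown libraries and 1.34, 2.51 and 1.69 TPM in control libraries. In the fit across all genes (limma on log2(TPM + 1), Benjamini-Hochberg over 14426 genes) Snai1 fell by 1.55 on the log2 scale at 36 h (SE 0.227, adjusted p = 0.0105) and by 0.80 at 0 h (SE 0.227, adjusted p = 0.0348). The exact two-sided permutation p was 0.1 at each time, the smallest that 3 libraries against 3 allow. Of 8 mammary epithelial markers, Krt14 (2206 to 20984 TPM), Krt5 (768 to 3449 TPM), Epcam (214 to 1161 TPM), Cdh1 (71.0 to 374 TPM), Krt8 (57.5 to 249 TPM) and Krt18 (8.43 to 91.6 TPM) were present in all 12 libraries. Cldn4 was low (1.24 to 6.44 TPM), and the milk protein gene Csn2 was listed at 0 in 10 libraries. Knockdown 0 h library 2 stood apart. In it, genes shorter than 1000 bases took 61.1% of all TPM, against 30.2% to 41.5% in the other 11 libraries, mitochondrially encoded genes took 13.99% against 1.45% to 6.15%, and ribosomal protein genes took 11.99% against 3.72% to 5.62%. The S100 members are themselves short, 480 to 926 bases, and their summed level was 9858 TPM in that library against 5429 to 8761 TPM in the others. The part that this shift of short transcripts plays in the results was not tested, and values of the members without library 2 are given where they change a call. At 0 h the median log2 fold change of all tested genes, knockdown over control, was -0.41, and median-of-ratios scaling moved it to 0.02.

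S100 RNA covered a wide range of levels (per length, TPM), from transcripts among the most abundant in the cells to traces. By mean TPM over the 12 libraries S100a11 ranked 22 and S100a6 ranked 28 of the 14426 genes, S100a10 ranked 255, S100a1 423, S100a16 433, S100a4 1045 and S100a14 2167, and S100a8 and S100g ranked 8975 and 10673. S100a6 was the highest member in both knockdown groups and S100a11 in both control groups. Neighbours in the order whose libraries overlapped were S100a6 and S100a11, S100a1 and S100a10, and S100g and S100a8 in knockdown at 0 h, S100a16 and S100a1, and S100g and S100a9 in control at 36 h, and S100a1 and S100a16, S100a4 and S100a14, and S100g and S100a9 in control at 0 h. In knockdown at 36 h no neighbours overlapped.

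**Figure D1:**
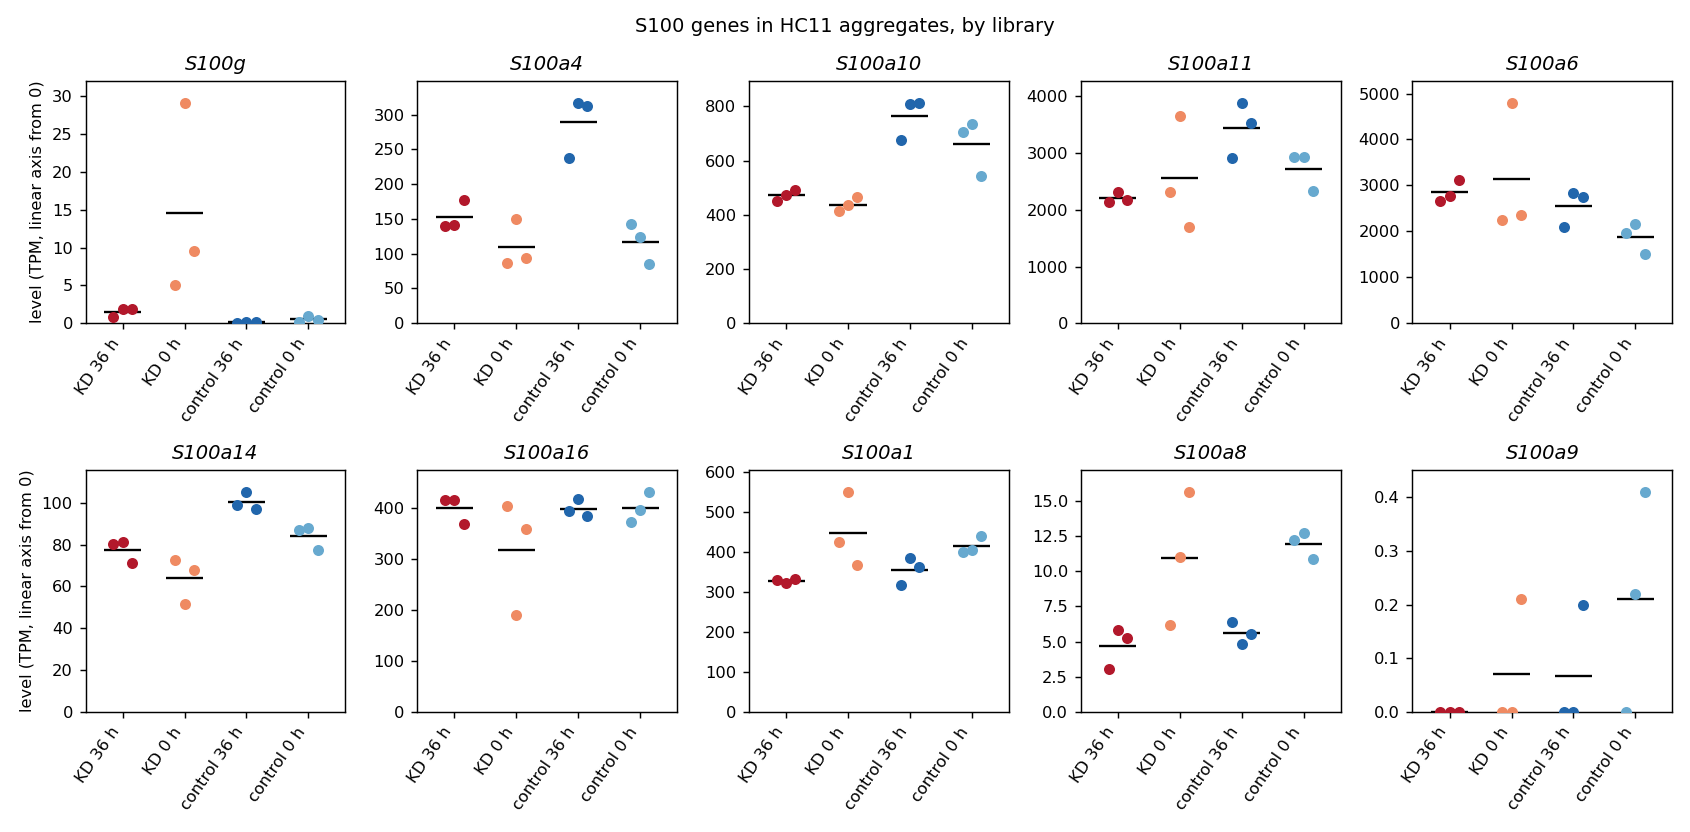
Level of each S100 gene in TPM (linear axis from 0, own scale per gene) in the libraries of knockdown at 36 h, knockdown at 0 h, control at 36 h and control at 0 h; each point is a library and each black line the mean of 3. S100g is above 5 TPM only in knockdown at 0 h, S100a10 lies lower in every knockdown library than in every control library, and S100a4 stands out in control at 36 h.

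S100g RNA, which encodes calbindin-D9k, a cytosolic calcium buffer and shuttle known from intestine as a vitamin D target, was higher in knockdown aggregates. Knockdown libraries at 0 h had 5.04, 29.08 and 9.52 TPM and control libraries at 0 h had 0.22, 1.00 and 0.46 TPM. The groups did not overlap, with library 2 the highest of the knockdown group, and the means were 14.5 ± 12.8 TPM in knockdown and 0.560 ± 0.400 TPM in control (SD, n = 3 each). The log2 fold change was 3.02 (SE 0.474, 95% interval 1.98 to 4.06, limma adjusted p = 0.00336), and without knockdown 0 h library 2 it was 2.38 (limma adjusted p = 0.000835). In bulk RNA, more cells with the transcript and more transcript per cell cannot be told apart.

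At 36 h S100g had 0.83, 1.83 and 1.87 TPM in knockdown libraries, against 0, 0.19 and 0.23 TPM in control libraries. These groups also did not overlap, but all values were below 2 TPM, and the log2 fold change of 1.11 did not pass the test (limma adjusted p = 0.269). It passed without knockdown 0 h library 2, with the same log2 fold change and a limma adjusted p of 0.0235. The means were 1.51 TPM in knockdown and 0.14 TPM in control, and at such levels the log2(TPM + 1) scale understates a change. Over 20 alternatives this log2 fold change ranged from 0.86 to 2.84. Within knockdown aggregates S100g fell by 2.34 on the log2 scale at 36 h relative to 0 h (SE 0.474, limma adjusted p = 0.0442), and by 1.70 without library 2 (limma adjusted p = 0.0224). This call over time was lost in 14 of 20 alternative analyses, though every one kept the direction. In control aggregates S100g averaged 0.56 TPM at 0 h and 0.14 TPM at 36 h. That log2 fold change was -0.43 and ranged from -1.45 to -0.17 over 20 alternatives. The change over time differed between knockdown and control by -1.91 (SE 0.670, unadjusted p = 0.0155), which did not pass adjustment (limma adjusted p = 0.595). Since the control values are low, the size of this difference also depends on the log2(TPM + 1) scale.

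Genes that handle calcium with S100g were set beside it. In the list of 17 vitamin D and calcium transport genes, 11 were tested, and 2 of these fell in knockdown at 0 h and 1 at 36 h, with none higher, beside 14.6% and 1.64% of all tested genes that were lower. Without knockdown 0 h library 2 the counts were 2 lower at 0 h, beside 16.5% of all genes lower in that fit. At 36 h they were 2 lower (Trpv6 and Atp2b1) and 1 higher (Pthlh), beside 11.7% of all genes lower and 6.88% higher. Trpv6, the apical calcium entry channel of absorptive epithelia, had 1.94 ± 1.05 TPM in knockdown and 6.10 ± 0.570 TPM in control at 0 h (log2 fold change -1.33, limma adjusted p = 0.00863), and 1.74 ± 0.312 TPM in knockdown and 7.24 ± 1.47 TPM in control at 36 h (-1.58, limma adjusted p = 0.0156; SD, n = 3 each). Vdr, the vitamin D receptor, had 55.1 ± 18.0 TPM in knockdown and 101 ± 5.27 TPM in control at 0 h (-0.91, limma adjusted p = 0.0258), and this call was lost under median-of-ratios scaling (-0.40, limma adjusted p = 0.0651). The list's median log2 fold change at 0 h was -0.50, beside -0.41 for all genes, so the shift of the list as a whole was close to the background.

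S100a10, which binds annexin A2 in a membrane complex known for anchoring plasminogen and channels, was lower in knockdown aggregates at both times. At 0 h it had 412.27, 434.82 and 465.53 TPM in knockdown libraries and 704.89, 734.83 and 543.26 TPM in control libraries. Knockdown at 36 h gave 451.25, 474.29 and 491.01 TPM, and control at 36 h gave 676.56, 807.98 and 812.04 TPM. The 6 knockdown libraries thus lay between 412 and 491 TPM, below all 6 control libraries, and the knockdown mean was 66.2% of the control mean at 0 h and 61.7% at 36 h.

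The log2 fold change of S100a10 was -0.58 at 0 h (SE 0.164, 95% interval -0.94 to -0.22, limma adjusted p = 0.0335) and -0.69 at 36 h, where it missed the threshold (limma adjusted p = 0.0519). The 0 h difference lay close to the median of all genes at that time (-0.41), and under median-of-ratios scaling it was -0.06 (limma adjusted p = 0.878), so that the call at 0 h rests on the TPM scale. At 36 h, where the median of all genes was -0.09, median-of-ratios scaling gave -0.58 (limma adjusted p = 0.234). Without knockdown 0 h library 2 both differences passed, at limma adjusted p = 0.0136 at 0 h and 0.00439 at 36 h.

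S100a11, a partner of annexin A1 that is abundant in epithelia, had 2131.68, 2310.27 and 2171.42 TPM in knockdown libraries at 36 h, against 2914.19, 3881.24 and 3521.51 TPM in control libraries at 36 h. The groups did not overlap, with a knockdown mean of 64.1% of the control mean, but the log2 fold change of -0.63 did not pass the test (limma adjusted p = 0.211) unless knockdown 0 h library 2 was left out (limma adjusted p = 0.0144). At 0 h it had 2322.10, 3647.76 and 1703.71 TPM in knockdown libraries and 2934.48, 2924.23 and 2324.73 TPM in control libraries. These overlap, with knockdown library 2 above every control library, and the difference was -0.16 (limma adjusted p = 0.642), or 0.36 under median-of-ratios scaling.

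Among the 12 annexins, the calcium-dependent membrane binders that S100 dimers bridge, 10 were tested, and 3 fell in knockdown at 0 h with none higher, beside 14.6% of all tested genes that were lower and 3.1% that were higher. Anxa4 (log2 fold change -1.55, limma adjusted p = 0.0260), Anxa11 (-1.16, limma adjusted p = 0.0364) and Anxa1 (-1.10, limma adjusted p = 0.0439) were the annexins that passed, and the list's median was -1.05 beside -0.41 for all genes. Under median-of-ratios scaling 2 of the 10 were called lower and Anxa1 was not (-0.58, limma adjusted p = 0.0775), with a list median of -0.53 beside 0.02 and 10.2% of all genes lower. Anxa2, the direct partner of S100a10, had 798.59, 215.09 and 725.18 TPM in knockdown libraries and 1045.37, 1021.11 and 1103.26 TPM in control libraries at 0 h (-1.08, limma adjusted p = 0.0713). Its lowest value was in knockdown 0 h library 2, where S100a6 had its highest. At 36 h Anxa2 averaged 940 ± 72.7 TPM in knockdown and 1205 ± 37.2 TPM in control (SD, n = 3 each; -0.36, limma adjusted p = 0.748), and none of the 10 annexins passed by limma.

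The annexin counts depended on knockdown 0 h library 2. Without it 6 of 10 were lower at 0 h (Anxa1, Anxa2, Anxa3, Anxa4, Anxa5 and Anxa11), beside 16.5% of all genes, and 6 were lower at 36 h (Anxa1, Anxa2, Anxa3, Anxa4, Anxa5 and Anxa8), beside 11.7%. The 0 h median of the list was then -0.45, beside -0.16 for all genes, and Anxa4 was -0.91 (limma adjusted p = 0.000139), Anxa1 -0.59 (limma adjusted p = 0.00493) and Anxa2 -0.47 (limma adjusted p = 0.00435). At 36 h Anxa2 was called at -0.36 (limma adjusted p = 0.0114), and over time in control Anxa1 was lower (-0.45, limma adjusted p = 0.0451).

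**Figure D2:**
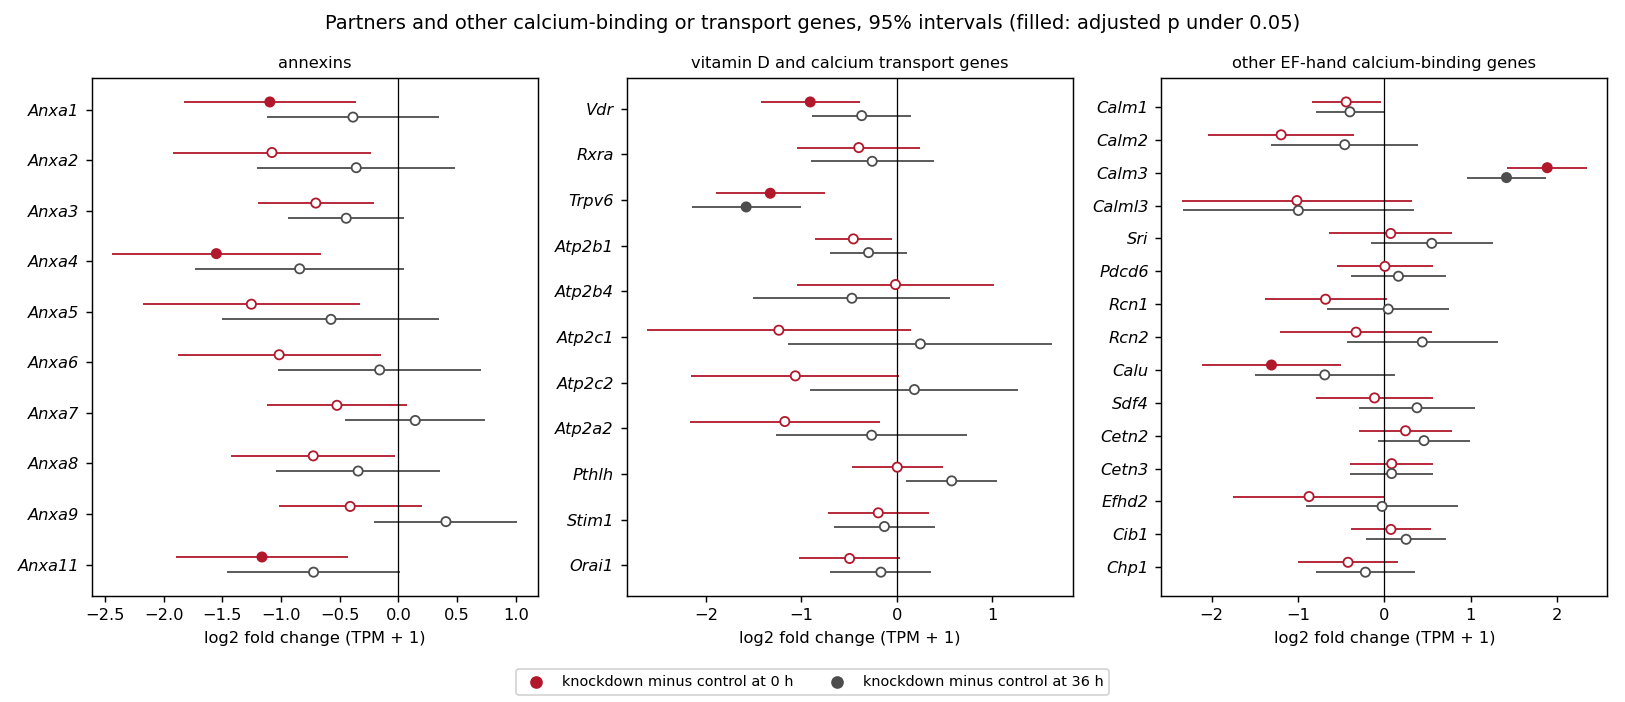
Log2 fold change on the log2(TPM + 1) scale, knockdown minus control, of annexins, vitamin D and calcium transport genes and other EF-hand genes at 0 h (red) and 36 h (grey), with 95% intervals; filled points passed at an adjusted p under 0.05. Anxa4, Anxa11 and Anxa1 are filled to the left of 0 at 0 h, Trpv6 is filled to the left and Calm3 to the right at both times.

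S100a4, a binder of non-muscle myosin IIA known for a link with motility and metastasis and often used as a fibroblast marker, differed most at 36 h. Knockdown libraries at 36 h had 139.79, 141.81 and 176.95 TPM and control libraries at 36 h had 237.85, 316.54 and 312.45 TPM. At 0 h knockdown libraries had 86.29, 150.28 and 94.21 TPM and control libraries had 143.19, 123.92 and 84.56 TPM. The groups overlapped at 0 h and were apart at 36 h, when the knockdown mean was 52.9% of the control mean.

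In control aggregates S100a4 at 36 h was 2.46-fold its 0 h mean, with no overlap, and the log2 fold change was 1.32 (SE 0.265, limma adjusted p = 0.0783). In knockdown aggregates the ratio was 1.39 and the groups overlapped (log2 fold change 0.50, limma adjusted p = 0.330). The knockdown difference at 36 h was -0.91 (limma adjusted p = 0.101), and neither it nor the control change passed. Both passed without knockdown 0 h library 2, at limma adjusted p = 0.00941 for the knockdown difference and 0.00507 for the control change. The change over time was 0.81 lower in knockdown than in control on the log2 scale (unadjusted p = 0.0519, limma adjusted p = 0.595), so a difference between them was not shown.

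Fibroblast markers were low beside S100a4. Their summed level over 6 genes was 7.87 to 13.56 TPM in knockdown at 36 h, 4.70 to 15.92 TPM in knockdown at 0 h, 12.93 to 23.65 TPM in control at 36 h and 14.42 to 17.20 TPM in control at 0 h. Pdgfra (1.16 to 11.08 TPM) and Col1a1 (1.4 to 10.27 TPM) were present in all 12 libraries. Dcn reached at most 2.58 TPM, Col3a1 1.56 TPM and Col1a2 0.37 TPM, and Lum was listed at 0 in 9 of 12 libraries. Of the 4 tested, Col1a1 fell in knockdown at 0 h (log2 fold change -1.01, limma adjusted p = 0.0398) and Col3a1 at 36 h (-0.99, limma adjusted p = 0.0468); under median-of-ratios scaling Col1a1 was instead called at 36 h (-1.02, limma adjusted p = 0.0362). With knockdown 0 h library 2 left out, no fibroblast marker was called at 0 h and both genes were at 36 h (Col1a1 -1.13, limma adjusted p = 0.0199, and Col3a1 at 0.00626). Of all genes, 14.6% were lower at 0 h and 1.64% at 36 h with all 12 libraries. Without library 2 these shares were 16.5% and 11.7%, and under median-of-ratios scaling 3.44% were lower at 36 h. Their part in the S100a4 values was not tested.

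S100a6, known as calcyclin and induced in proliferating cells, was the other very abundant member. Knockdown libraries at 0 h had 2245.22, 4792.77 and 2361.58 TPM and control libraries at 0 h had 1963.75, 2157.03 and 1514.56 TPM. The groups did not overlap, and library 2 was the highest by far. The means were 3133 ± 1438 TPM in knockdown and 1878 ± 330 TPM in control (SD, n = 3 each). The log2 fold change of 0.66 did not pass (limma adjusted p = 0.103) and was 0.31 without library 2. At 36 h S100a6 had 2653.65, 2778.21 and 3109.59 TPM in knockdown and 2088.63, 2842.84 and 2743.53 TPM in control, which overlap (0.16 on the log2 scale).

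S100a14, an epithelial member, had 72.68, 51.63 and 68.12 TPM in knockdown and 86.88, 87.88 and 77.22 TPM in control at 0 h, and 80.09, 81.29 and 71.01 TPM in knockdown and 98.88, 105.30 and 97.04 TPM in control at 36 h. Neither pair overlapped and the knockdown mean was 76.4% and then 77.1% of the control mean, but the log2 fold changes of -0.40 at 0 h (limma adjusted p = 0.135) and -0.37 at 36 h (0.349) did not pass. At 0 h the sign turned under median-of-ratios scaling (0.12), and at 36 h the difference passed without knockdown 0 h library 2 (limma adjusted p = 0.0178).

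S100a16, a widely expressed member, was near 400 TPM in most libraries. It had 403.64, 189.41 and 358.51 TPM in knockdown and 372.77, 395.20 and 431.90 TPM in control at 0 h, with library 2 the low value, and 416.24, 415.87 and 369.08 TPM in knockdown and 394.50, 416.94 and 384.42 TPM in control at 36 h. Its knockdown difference was -0.40 at 0 h (limma adjusted p = 0.242), -0.07 without library 2 and 0.12 under median-of-ratios scaling, so no direction can be given.

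S100a1, best known from muscle as a regulator of calcium release, had 331.82, 322.95 and 333.09 TPM in knockdown and 317.09, 385.10 and 362.01 TPM in control at 36 h, and 426.88, 551.72 and 367.70 TPM in knockdown and 401.10, 405.86 and 440.66 TPM in control at 0 h. The knockdown and control libraries overlapped at both times. In both knockdown and control the 36 h libraries lay below all 0 h libraries, and the change over time in knockdown was -0.43 (limma adjusted p = 0.281). The promoter windows of S100a1 and S100a13 overlap by 204 bases on opposite strands. An overlap of these windows does not show that the transcripts overlap. The library kit marks strand, but whether the counting used it is not stated, and whether reads of this pair were mixed was not tested.

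S100a8 encodes a subunit of calprotectin, the metal-binding protein that neutrophils hold in bulk and that stressed epithelia also make, and S100a9 encodes the other. S100a8 had 3.05, 5.83 and 5.23 TPM in knockdown at 36 h and 6.20, 11 and 15.63 TPM in knockdown at 0 h, and 6.38, 4.84 and 5.51 TPM in control at 36 h and 12.24, 12.68 and 10.85 TPM in control at 0 h. The 36 h libraries lay below the 0 h libraries in both, and the 36 h mean was 43.0% of the 0 h mean in knockdown and 46.8% in control. The log2 fold changes over time, -1.02 in knockdown (limma adjusted p = 0.168) and -0.98 in control (limma adjusted p = 0.416), did not pass. S100a9 was listed at 0 in 8 of the 12 libraries and between 0.20 and 0.41 TPM in the other 4, namely knockdown 0 h library 3, control 36 h library 3 and control 0 h libraries 2 and 3, and was not tested.

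Myeloid markers were set beside S100a8. Of 13, 2 were tested. Ngp, Elane and Retnlg, which mark neutrophils and their precursors, were listed at 0 in all 12 libraries, and Ptprc (at most 0.17 TPM), Ly6g (at most 0.32 TPM), Itgam (at most 0.08 TPM) and Mpo (at most 0.14 TPM) were near 0. Camp reached at most 0.11 TPM, Adgre1 0.08 TPM, Csf3r 0.43 TPM and Csf1r 1.29 TPM, the last listed at 0 in 8 libraries. The summed level of the list was 2.52 to 2.77 TPM in knockdown at 36 h, 6.75 to 12.72 TPM in knockdown at 0 h, 3.23 to 4.06 TPM in control at 36 h and 13.45 to 18.13 TPM in control at 0 h, most of it Cd68, a lysosomal gene that epithelia also express. Cd68 fell over time in knockdown (log2 fold change -1.46, limma adjusted p = 0.0158) and in control (-1.68, limma adjusted p = 0.0142). Ltf, the milk protein lactoferrin and also a neutrophil granule gene, fell over time in control (-1.89, limma adjusted p = 0.0342) and was lower in knockdown at 0 h (-1.56, limma adjusted p = 0.0115).

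Counted over the 9 tested members, 2 were called at 0 h, S100g higher and S100a10 lower, beside 17.7% of all genes tested (3.1% higher and 14.6% lower). At 0 h 3 of 9 had an unadjusted p under 0.05, beside 37.3% of all genes. At 36 h none was called by limma, with 4 of 9 at an unadjusted p under 0.05 (16.3% of all genes), beside 2.53% of all genes called (0.894% higher and 1.64% lower). The spread in this fit is pooled over all groups, knockdown 0 h library 2 included. With only the groups compared, S100g passed as higher at 36 h and S100a4, S100a10, S100a11 and S100a14 as lower. Of all 14426 genes 2176 were then called at 36 h. The same setting kept neither S100 call at 0 h. Over time 1 member was called in knockdown, S100g, beside 1.12% of all genes (0.998% higher and 0.125% lower), and none in control, with 2 of 9 at an unadjusted p under 0.05 (5.57% of all genes), beside 0.36% called (0.25% higher and 0.111% lower). In knockdown 3 of 9 had an unadjusted p under 0.05 over time, beside 16.4% of all genes. The difference of the 36 h changes was called for none of the 9, with 1 at an unadjusted p under 0.05 (5.31% of all genes), and for 0% of all genes. The median log2 fold change of the members, knockdown minus control, was -0.16 at 0 h and -0.23 at 36 h, beside -0.41 and -0.09 for all genes. Under median-of-ratios scaling the 0 h median of the members was 0.36, beside 0.02.

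**Figure D3:**
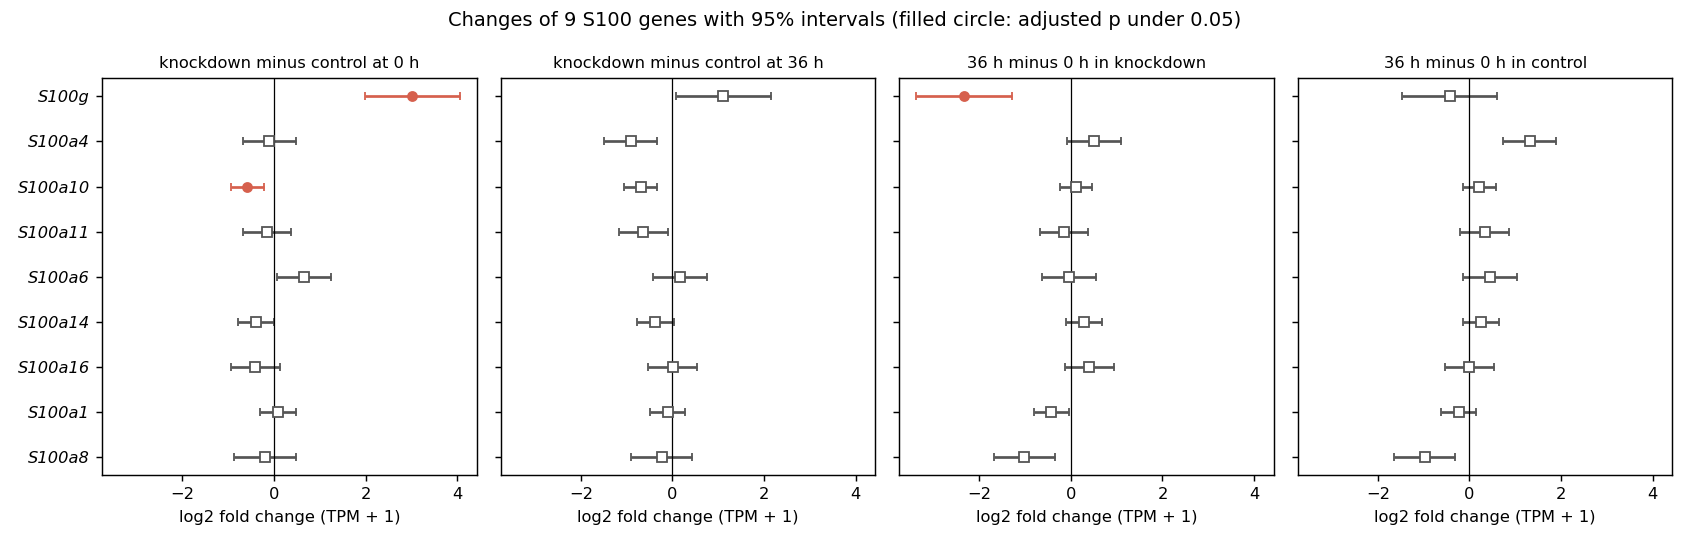
Log2 fold change on the log2(TPM + 1) scale of the 9 tested S100 genes in 4 comparisons with 95% intervals; filled red circles passed at an adjusted p under 0.05 and open squares did not. S100g passed at 0 h (3.02) and over time in knockdown (-2.34), and S100a10 passed at 0 h (-0.58).

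By separation of libraries, 4 of the 10 members did not overlap at 0 h, S100g and S100a6 higher in knockdown and S100a10 and S100a14 lower, beside 38% of all tested genes (7.24% higher and 30.7% lower). At 36 h 5 did not overlap, S100g higher and S100a4, S100a10, S100a11 and S100a14 lower, beside 36.8% (14.8% higher and 22% lower). Over time 3 did not overlap in knockdown, S100g, S100a1 and S100a8, all lower at 36 h, beside 18.9% of genes (15% higher and 3.91% lower). In control 4 did not overlap, S100a4 and S100a14 higher and S100a1 and S100a8 lower at 36 h, beside 21.8% (9.55% higher and 12.3% lower).

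**Figure D4:**
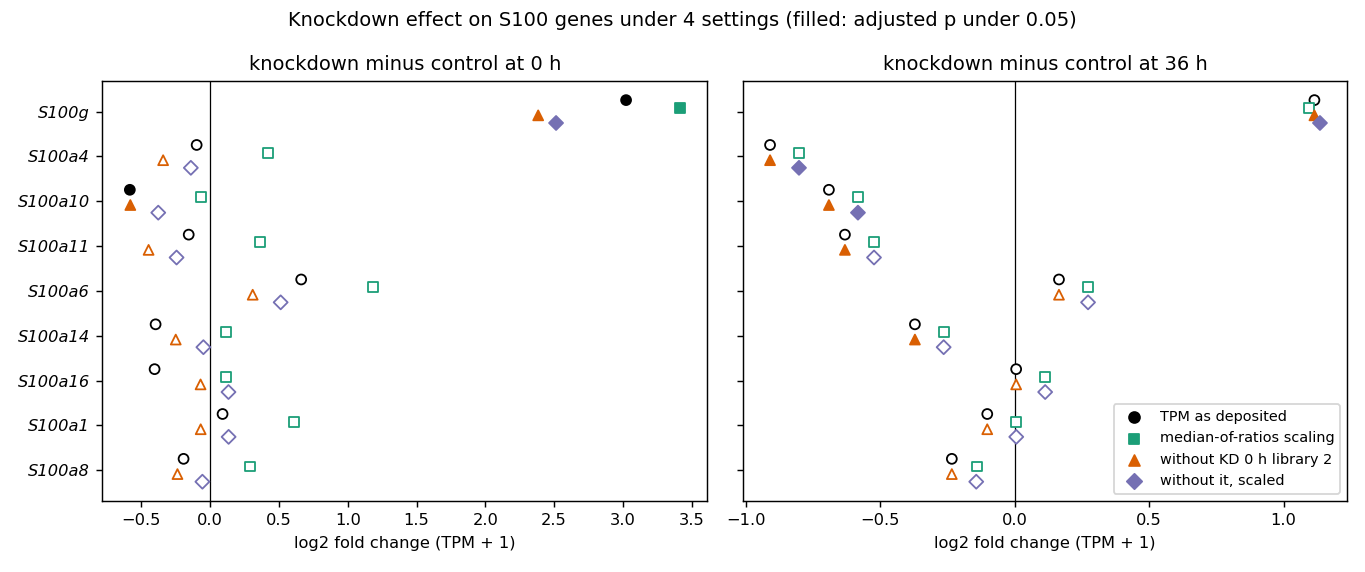
Knockdown minus control log2 fold change (log2(TPM + 1) scale) of the 9 tested S100 genes at 0 h and at 36 h under the deposited TPM, median-of-ratios scaling, removal of knockdown 0 h library 2, and both; filled symbols passed at an adjusted p under 0.05. S100g stays at 2.38 or above at 0 h, S100a10 lies between -0.58 and -0.06 there, and at 36 h the values of each gene lie close together while the calls depend on library 2.

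The other 8 S100 genes of the list were scarcer, and 4 were tested, none called in any comparison with all 12 libraries on the TPM scale. Of all genes, 17.7% were called there at 0 h and 2.53% at 36 h. Without knockdown 0 h library 2, S100a13 was called higher (0.41, limma adjusted p = 0.0136) and S100b lower (-0.62, limma adjusted p = 0.0232) at 0 h. S100b was then also lower at 36 h (-0.56, limma adjusted p = 0.0263), S100a13 lower over time in knockdown (-0.47, limma adjusted p = 0.0335) and S100a3 higher over time in control (1.28, limma adjusted p = 0.0216). In that fit 6.74% of all genes were higher and 16.5% lower at 0 h, and 11.7% were lower at 36 h. Over time 0.922% were lower in knockdown and 1.19% higher in control. S100a13 averaged 125 ± 13.6 TPM in knockdown and 88.1 ± 3.07 TPM in control at 0 h (SD, n = 3 each; log2 fold change 0.49, limma adjusted p = 0.0584), and it was called under median-of-ratios scaling (1.01, limma adjusted p = 0.0299). S100b averaged 8.72 ± 0.920 TPM in knockdown and 13.3 ± 2.34 TPM in control at 0 h (-0.54, limma adjusted p = 0.0682). S100a3 averaged 10.3 ± 0.658 TPM at 36 h and 3.80 ± 1.37 TPM at 0 h in control (1.28, limma adjusted p = 0.0772). Of the 7 S100-fused genes, which join an S100 domain to cornified envelope repeats, 1 was tested and it was not called.

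Among the wider partners, the 6 surface receptors of S100 proteins had 5 tested and none called, with Ager below the filter. All genes gave 17.7% called at 0 h and 2.53% at 36 h. Without knockdown 0 h library 2 Bsg was higher (0.39, limma adjusted p = 0.0104) and Alcam lower (-0.80, limma adjusted p = 0.0383) at 36 h. That stands beside 6.88% of all genes higher and 11.7% lower. Of 9 intracellular partners 8 were tested, and Mdm2, the p53 ligase that S100 proteins can bind, fell in knockdown at 0 h to 17.4 ± 11.7 TPM, against 55.7 ± 0.866 TPM in control (SD, n = 3 each; -1.89, limma adjusted p = 0.0167, and -1.25 without library 2). Ahnak, the giant scaffold that binds S100a10 with annexin A2, averaged 56.4 ± 6.43 TPM in knockdown and 40.5 ± 5.07 TPM in control at 0 h and 58.0 ± 4.97 TPM in knockdown and 35.4 ± 2.10 TPM in control at 36 h, and was not called. Under median-of-ratios scaling Ahnak was called higher at 0 h (0.98, limma adjusted p = 0.00561) and at 36 h (0.80, limma adjusted p = 0.0287), and without knockdown 0 h library 2 likewise at 0 h (0.56, limma adjusted p = 0.0109) and at 36 h (0.70, limma adjusted p = 0.00285). In that fit Cacybp was also higher at 0 h (0.36, limma adjusted p = 0.0300) and Mdm2 lower at 36 h (-0.72, limma adjusted p = 0.0209). Of 20 other EF-hand genes 15 were tested, and Calm3, a calmodulin gene, was higher at both times. Calm3 had 82.63, 66.66 and 72.96 TPM in knockdown libraries and 21.24, 22.73 and 14.76 TPM in control libraries at 0 h (log2 fold change 1.88, SE 0.211, limma adjusted p = 0.00100). At 36 h it had 42.15, 51.88 and 53.07 TPM in knockdown and 16.35, 19.81 and 17.10 TPM in control (1.41, limma adjusted p = 0.0114). Under median-of-ratios scaling 5 of the 15 were higher at 0 h, Calm3, Cetn2, Cetn3, Cib1 and Sri, and Calu was lower, beside 8.66% of all genes higher and 10.2% lower. Without knockdown 0 h library 2 4 were higher at 0 h (Calm3, Cetn2, Sri and Sdf4) and 2 lower (Calm2 and Calu), and at 36 h 5 were higher (Calm3, Cetn2, Sri, Sdf4 and Rcn2) and 2 lower (Calm2 and Calu). Of all genes, 6.74% were then higher and 16.5% lower at 0 h, and 6.88% higher and 11.7% lower at 36 h, and over time in control Efhd2 was lower. Calu, an endoplasmic reticulum EF-hand protein, fell in knockdown at 0 h (-1.31, limma adjusted p = 0.0341, and -0.81 without library 2). Among the epithelial markers, 7 of 8 tested, Krt5 rose over time in knockdown (1.68, limma adjusted p = 0.00108) and control (1.15, limma adjusted p = 0.0231), Krt14 rose over time in knockdown (1.88, limma adjusted p = 0.0412) and Cldn4 was lower in knockdown at 0 h (-0.76, limma adjusted p = 0.0465), a call lost in 19 of 19 alternatives. With knockdown 0 h library 2 left out, Epcam and Krt18 were called lower in knockdown at 0 h, and Epcam lower and Krt14 higher at 36 h. Epcam was then also lower over time in knockdown, and in control Krt14 was higher and Epcam, Krt18 and Cldn4 were lower over time. Over time in that fit 1.94% of all genes were higher and 0.922% lower in knockdown. In control 1.19% were higher and 1.56% lower.

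Across the 12 libraries, as a description over 4 groups of the same cell line, the named genes whose log2(TPM + 1) followed S100g most closely were Tmem256 (Pearson r = 0.978) and Emc6 (0.968). For S100a10 they were Cenph (0.965) and Ang2 (0.959). Between members, S100a10 and S100a14 had r = 0.807 and S100g and S100a14 had r = -0.909, and knockdown 0 h library 2 with its short-transcript shift is among the points of each.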

How the data were processed

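RNA-seq (a stranded mRNA kit, per the labels) was measured in 12 HC11 libraries, 3 per group, with groups taken from the sample titles. The authors deposited gene-level TPM for 57180 genes with a gene length, 4 columns of the authors' group means and 1 column that repeats control 36 h library 4, none of the 5 used. HISAT2 2.2.1, HTSeq, cutadapt 1.9.1, FastQC, DESeq2 and build GRCm39 are named, with no roles, in the submitters' processing notes. TPM keeps no depth, so library depth is unknown and no counting error can be given.

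From the TPM, the 14426 genes that reached 1 TPM in 3 or more libraries were fitted on log2(TPM + 1) in limma 3.58.1 (R 4.3.3; eBayes with a variance trend), all 12 libraries together, with 5 comparisons. P-values are two-sided and Benjamini-Hochberg adjusted over all genes tested, with calls made at an adjusted p under 0.05. The log2(TPM + 1) scale understates changes of low genes. The procedure was tested on simulated data. Python 3.11.15 with pandas 2.3.3, numpy 2.4.6 and scipy 1.17.1 did the rest.

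The members and gene lists were chosen with earlier results of these data known. Named genes are Snai1, all 10 members, and up to 3 called genes with the lowest adjusted p per list and comparison, plus 2 most correlated genes per called member. Genes outside this rule, namely Anxa2, Ahnak, S100a3, S100a13, S100b, the genes called only under an alternative, and the markers with ranges, were named after their values were seen. Promoters are RefSeq's, in build GRCm38.p6, and no coordinate was converted. Protein sequences were not used here. The alternatives were another pseudocount, other filters, median-of-ratios scaling, a replicate block, only the groups compared, and leaving out libraries.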

Additional observations from a re-analysis of the deposited data

How the results depend on the processing

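Both the calls and the signs of S100 genes depended on the settings. At 0 h 2 members were called, 1 with no filter, median-of-ratios scaling, the replicate block or knockdown 0 h library 2 left out with that scaling, 0 with only the groups compared (which estimates the spread from 6 libraries), and 1 to 3 with a library left out. Of all genes, 2550 of 14426 were called at 0 h, 1258 of 35924 with no filter, 2718 with median-of-ratios scaling and 1011 with the replicate block. Library 2 left out with that scaling gave 3256, and only the groups compared gave 16. The S100g call was lost with only the groups compared (limma adjusted p = 0.0758), and the S100a10 call in 12 of 20 alternatives, among them the replicate block (limma adjusted p = 0.0984). S100a6 was called at 0 h without knockdown 0 h library 3 (0.82, limma adjusted p = 0.0472). At 36 h 0 members were called, 1 with a filter of 5 TPM, 5 with only the groups compared, 2 without knockdown 0 h library 2 and control 36 h library 4, 3 with library 2 left out and median-of-ratios scaling, and 0 to 5 with a library left out (5 without knockdown 0 h library 2, 1 without knockdown 0 h library 3). The calls among all 14426 genes rose as well, from 365 to 2176 with only the groups compared and 1439 without both libraries. Without knockdown 0 h library 2 there were 2683, or 2741 with scaling, and without knockdown 0 h library 3 there were 545. The 5 TPM filter gave 317 of 10855 genes. Over time in knockdown 1 member was called, 0 with median-of-ratios scaling, only the groups compared, a pseudocount of 0.1, no filter or the 5 TPM filter, and 0 to 1 with a library left out. Of all 14426 genes 162 were called there, 240 with median-of-ratios scaling, 18 with only the groups compared and 136 with that pseudocount. No filter gave 117 of 35924 genes and the 5 TPM filter 131 of 10855. In control 0 members were called, 2 with only the groups compared, 1 without both libraries, 1 with library 2 left out and scaling, and 0 to 1 with a library left out. Of all 14426 genes 52 were called in control, 247 with only the groups compared, 159 without both libraries and 390 with library 2 left out and scaling. The difference of the changes was called for 0 members under all alternatives run, which leave out the fit of only the groups compared, since it uses all 4. The combination of library 2 left out with median-of-ratios scaling was chosen after seeing the data. Snai1 at 0 h missed the threshold with no filter (-0.80), scaling (-0.51), the replicate block (-0.80) and only the groups compared (-0.80), and with a library left out ranged from -0.93 to -0.64 and missed it in 6 of 12 fits (limma adjusted p up to 0.123); at 36 h it missed it with the replicate block (-1.50), and with a library left out ranged from -1.64 to -1.42 and missed it in 3 of 12 (limma adjusted p up to 0.0705).

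Signs turned only in comparisons where the member was not called. At 0 h median-of-ratios scaling gave S100a4 0.42, S100a8 0.29, S100a11 0.36, S100a14 0.12 and S100a16 0.12, library 2 left out with scaling gave S100a16 0.13, and both libraries left out gave S100a1 -0.069. At 36 h S100a1 was 0.0055 with scaling and 0.0053 with library 2 also out, and S100a16 was -0.021 without both libraries. Over time in knockdown, scaling gave S100a10 -0.29 and S100a14 -0.12, both libraries out gave S100a6 0.30 and S100a11 0.15, and library 2 out with scaling gave S100a6 0.21, S100a11 0.056 and S100a16 -0.020. In control S100a16 was 0.0065 with scaling, 0.023 without both libraries and 8.1e-04 with library 2 out and scaling. For the difference of changes S100a14 was -0.38 with scaling, -0.15 without both libraries and -0.22 with library 2 out and scaling, and S100a16 was -0.0022 with scaling and -0.020 with library 2 out and scaling. With a library left out, ranges that crossed 0 were, at 0 h, S100a1 -0.069 to 0.22, S100a11 -0.45 to 0.10, S100a4 -0.34 to 0.062 and S100a8 -0.47 to 0.13; at 36 h S100a16 -0.024 to 0.062; over time in knockdown S100a11 -0.40 to 0.15 and S100a6 -0.24 to 0.30; in control S100a16 -0.052 to 0.054; and for the difference S100a10 -0.19 to 0.027, S100a14 -0.12 to 0.12 and S100a8 -0.37 to 0.24. The cause was not tested.

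Libraries with the same replicate number showed no clear likeness (correlation of deviations -0.287 to 0.132 over 15 same-number pairs, 2 above 0.1). A different-number pair, knockdown 0 h library 3 and control 36 h library 1, reached 0.255. With 3 libraries per group this check cannot exclude a shared culture or day. With the replicate block 1011 of all genes were called at 0 h against 2550 without it, 5 against 365 at 36 h, 40 against 162 over time in knockdown and 6 against 52 in control. With only the groups compared the counts were 16 at 0 h, 2176 at 36 h, 18 in knockdown and 247 in control, and without knockdown 0 h library 2 they were 3350, 2683, 413 and 397. Median-of-ratios scaling changed the split of higher and lower calls at 0 h to 1249 and 1469, against 447 and 2103 on TPM, over time in knockdown to 176 and 64, against 144 and 18, and in control to 50 and 38, against 36 and 16. Of the list genes called with all 12 libraries on the TPM scale none turned sign, and the signs of the other list genes were not followed one by one. Under median-of-ratios scaling the 0 h median of the other EF-hand genes turned from -0.33 to 0.19, and that of the intracellular partners from -0.39 to 0.12. Anxa1 and Anxa11 at 0 h lost their call in 14 of 20 alternatives, Anxa4 in 5, Vdr in 7, Mdm2 in 5, Calu in 10, Trpv6 in 1 at 0 h and 6 at 36 h, and Calm3 in 1 at 0 h and 5 at 36 h. Of the markers, Col1a1 lost its call in 15 of 20, Col3a1 in 13 of 19, Cldn4 in 19 of 19, Krt14 in 13 of 20, Krt5 in 1 of 20 in knockdown and 10 of 20 in control, Cd68 in 5 of 20 in knockdown and 6 of 20 in control, and Ltf in 2 of 19 at 0 h and 12 of 19 over time in control. Depth is unknown, and S100g and S100a9 in control aggregates lie at or below 1 TPM.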

Other observations

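The ratio of S100a6 to S100a11, the most abundant members, was computed after their values were seen, and it does not depend on how a library is scaled. At 36 h it was 1.24, 1.20 and 1.43 in knockdown libraries and 0.717, 0.732 and 0.779 in control libraries, with means of 1.29 ± 0.122 in knockdown and 0.743 ± 0.0324 in control (SD, n = 3 each). At 0 h it was 0.967, 1.31 and 1.39 in knockdown libraries and 0.669, 0.738 and 0.651 in control libraries, with means of 1.22 ± 0.224 in knockdown and 0.686 ± 0.0455 in control (SD, n = 3 each). Every one of the 6 knockdown libraries exceeded the 6 control libraries, and knockdown 0 h library 2, at 1.31, lay among the other knockdown libraries. The exact two-sided permutation p was 0.1 at each time, the smallest that 3 against 3 allows. Because the pair was picked from these same values, neither the separation nor this p is a test of it. The share of other gene pairs whose ratios separate was not computed. Over time the ratio overlapped in knockdown (exact permutation p = 0.8) and in control (exact permutation p = 0.3).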
